A study of Homo sapiens with 6 samples.

Results

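Integrins are the receptors with which a cell holds on to the matrix around it, and laminins are among the proteins they hold. The genes described here are every row of the count table named as an integrin alpha subunit, an integrin beta subunit or a laminin chain, which gave 38 of 26485 genes: 18 alpha subunits, 8 beta subunits and 12 laminin chains (5 alpha, 4 beta and 3 gamma). They were measured in HCC38, an established breast ductal carcinoma line, triple negative and basal-like by its labels. The 3 control libraries were a mock and 2 transfected with siRNAs that target no gene, SCR#2 in 1 and SCR#3 in the other. The 3 treated libraries, siCIP2A#1, siCIP2A#2 and siCIP2A#3, each came from cells given a different siRNA against CIP2A, an inhibitor of the phosphatase PP2A. All siRNAs were delivered with Oligofectamine. The mock is described in 1 label as reagent alone and in the design text as not transfected. The labels give neither a time after transfection nor whether separate cultures were used, so the spread behind each p-value is that of these libraries and may be technical.

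An integrin is a pair of 1 alpha and 1 beta subunit, and the pairing sets what it binds. The beta 1 subunit, encoded by ITGB1, has many alpha partners, among them the alpha 3 and alpha 6 subunits of laminin receptors. The alpha 6 subunit also pairs with beta 4 in hemidesmosomes, which anchor epithelial cells to the basement membrane, and alpha V pairs with several beta subunits in receptors for fibronectin and vitronectin. A laminin is a trimer of 1 alpha, 1 beta and 1 gamma chain. LAMA3 and LAMB3 encode chains of laminin 332 of epithelial basement membranes, and LAMC1 is the gamma chain of most other laminins.

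CIP2A itself was lower in every library given a CIP2A siRNA. It stood at 98.9, 99.8 and 103 CPM (read counts scaled to a common library size, with TMM factors) in the mock, SCR#2 and SCR#3 libraries, and at 16.3, 45.8 and 19.3 CPM with siCIP2A#1, siCIP2A#2 and siCIP2A#3. The log2 difference from the controls was -2.62 (SE 0.13), -1.13 (SE 0.12) and -2.38 (SE 0.13), with adjusted p of 0.00024, 0.0165 and 0.00047 (edgeR). The siCIP2A#2 library kept the most CIP2A RNA. Over the group of 3 siRNAs the difference was -1.90 (SE 0.30), with an adjusted p of 0.708.

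Libraries held between 13995187 and 18161451 counts, and the 38 genes together took 0.569% to 0.702% of them, the lowest share in the mock and the highest with siCIP2A#1. Of the markers of basal epithelium, KRT14 and KRT6B had no count in any library and KRT5 and KRT17 had at most 1 count, while EGFR lay between 73.0 and 84.4 CPM. Basal TP63 and CDH3 were at most 0.526 and 1.36 CPM. The luminal keratins KRT8 and KRT18 lay between 252 and 439 CPM and between 395 and 708 CPM, and luminal ERBB2 between 48.3 and 74.4 CPM. Other luminal markers were low: ESR1 and PGR at most 0.351 and 0.117 CPM, GATA3 0.611 to 1.10 CPM and FOXA1 1.16 to 1.60 CPM. The labelled basal-like class thus stood beside defining basal keratins that were not detected or nearly so, and luminal markers were mixed. Of the markers of other cell types, PTPRC of leukocytes, CDH5 of endothelium, PF4 and PPBP of platelets and THY1 of fibroblasts had no count, while others were detected. Endothelial PECAM1 lay between 3.00 and 6.22 CPM and KDR between 3.53 and 6.28 CPM. The summed level of 6 endothelial markers was 7.79 to 11.4 CPM in the controls and 7.36 to 14.2 CPM with CIP2A siRNAs. Those of 8 leukocyte and 6 platelet markers were at most 2.07 and 0.295 CPM. The summed level of 7 fibroblast markers was 6.72 to 8.42 CPM in the controls and 6.36 to 18.8 CPM with CIP2A siRNAs, the highest with siCIP2A#1, where COL1A1 alone gave 14.4 CPM. The endothelial sum, KRT8 and KRT18 were also highest with siCIP2A#1 and lowest with siCIP2A#3, whereas EGFR was lowest with siCIP2A#1.

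Promoter sequences are shown for LAMA4, the gene of these families with the smallest p over the group of siRNAs, and for ITGB6, ITGB5, LAMB1 and LAMB3, which had the smallest p between siCIP2A#3 and siCIP2A#1 among genes with an entry (ITGAX had none in the table used). The choice was made with these results known. Each run is 5′ to 3′ on the gene's strand, from 250 bases before to 50 bases after an annotated start (RefSeq, GRCh38.p14). Where the promoter set used held several starts of a gene, the farthest upstream of them was taken. It held 1 start of LAMA4, whose RefSeq gene reaches farther upstream, to 112254985, outside the window printed. Capitals mark matches to GGGCGG on either strand. All 5 genes lie on the minus strand, at chr6:112254518-112254817, chr2:160200223-160200522, chr3:124901369-124901668, chr7:108003112-108003411 and chr1:209652376-209652675 in the order printed.
LAMA4: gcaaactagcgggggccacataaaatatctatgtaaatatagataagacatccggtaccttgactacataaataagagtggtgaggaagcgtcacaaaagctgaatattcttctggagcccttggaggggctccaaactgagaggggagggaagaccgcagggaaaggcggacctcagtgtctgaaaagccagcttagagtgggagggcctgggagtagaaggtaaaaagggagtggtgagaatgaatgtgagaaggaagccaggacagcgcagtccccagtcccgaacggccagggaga
ITGB6: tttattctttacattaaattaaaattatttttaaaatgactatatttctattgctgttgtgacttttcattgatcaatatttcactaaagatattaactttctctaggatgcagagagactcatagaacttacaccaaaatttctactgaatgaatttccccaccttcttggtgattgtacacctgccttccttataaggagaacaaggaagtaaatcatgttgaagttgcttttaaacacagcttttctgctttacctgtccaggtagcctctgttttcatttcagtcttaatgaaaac
ITGB5: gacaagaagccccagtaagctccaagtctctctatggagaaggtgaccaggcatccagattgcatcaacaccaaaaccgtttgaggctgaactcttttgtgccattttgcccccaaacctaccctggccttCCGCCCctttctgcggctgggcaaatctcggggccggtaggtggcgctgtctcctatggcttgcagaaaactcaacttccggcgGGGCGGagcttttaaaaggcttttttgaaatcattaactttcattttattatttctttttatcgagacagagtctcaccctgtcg
LAMB1: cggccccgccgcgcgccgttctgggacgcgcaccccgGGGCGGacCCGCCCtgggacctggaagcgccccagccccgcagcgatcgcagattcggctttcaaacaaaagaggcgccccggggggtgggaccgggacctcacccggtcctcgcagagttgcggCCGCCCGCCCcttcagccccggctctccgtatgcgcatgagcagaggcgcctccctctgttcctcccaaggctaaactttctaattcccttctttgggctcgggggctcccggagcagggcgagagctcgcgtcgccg
LAMB3: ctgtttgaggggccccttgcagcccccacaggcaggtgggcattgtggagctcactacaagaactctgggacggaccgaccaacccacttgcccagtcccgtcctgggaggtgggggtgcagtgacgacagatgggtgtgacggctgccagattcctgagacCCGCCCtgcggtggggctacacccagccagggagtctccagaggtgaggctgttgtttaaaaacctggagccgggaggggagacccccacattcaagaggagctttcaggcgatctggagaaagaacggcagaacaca
GGGCGG, the GC box to which SP1 binds, was found 2 times in the ITGB5 window, 4 times in LAMB1 and 1 time in LAMB3, and not in LAMA4 or ITGB6. The AP-1 motif TGANTCA, the TATA box TATAAA and the TEAD motif GGAATG were in none of the 5 windows (both strands, no overlap between motifs). Over all 35116 promoter windows of the same length, 45.0% held the GC box, 7.71% AP-1, 11.5% the TATA box and 14.0% TEAD. Of the 26 genes of these families with a window, 14, 3, 2 and 4 held them in at least 1 of their windows, a count per gene and not per window. LAMB3 was among those with AP-1, with 1 match in a window of another start that is not printed. A match is a string of letters and not a shown binding site.

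Alpha subunits of laminin receptors and their beta 1 partner dominated the receptors. Levels of different genes are compared here as TMM-scaled CPM per kilobase of exons (GENCODE 29), averaged over 6 libraries. ITGA3 was highest at 212 (range over libraries 180 to 232), ITGB1 followed at 154 (137 to 170) and ITGA6 at 125 (107 to 153). ITGA3 made up 43.2% to 55.2% of the summed alpha subunit level, and ITGB1 66.1% to 71.9% of the summed beta subunit level. The ranges of ITGA3 and ITGB1 did not overlap, nor did those of ITGA6 and the next gene, ITGB5, at 52.8 (43.8 to 66.8), whereas those of ITGB1 and ITGA6 did.

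Other receptors formed a lower tier. ITGA5, the alpha subunit of the classic fibronectin receptor, had a mean level per length of 38.1, ITGAV 19.0, ITGA4 12.4, ITGB4 9.94, the collagen receptor subunit ITGA2 8.80 and ITGB3 7.01. Below them came ITGAE at 1.84, ITGA10 at 1.21 and ITGA1 at 1.05. The remaining receptor subunits that passed the count filter had a mean level per length under 1: ITGB6 0.667, ITGA7 0.615, ITGA2B 0.568, ITGAM 0.524, ITGAX 0.215, ITGA11 0.164 and ITGB8 0.134.

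Among laminin chains the gamma chain LAMC1 was highest, with a mean level per length of 44.0 (37.8 to 47.6). LAMB3 stood at 32.8, LAMB1 at 29.7 and LAMB2 at 17.9. Alpha chains were lower: LAMA2 8.62, LAMA5 5.49, LAMA4 1.29, LAMA3 1.12 and LAMA1 0.0764, with LAMC3 at 0.794. LAMA3, the alpha chain partner of LAMB3, thus lay far below it in level per length. With the longest transcript in place of all exons as the length, 22 genes were at 1 or above in both cases and 9 of the 10 highest were shared.

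**Figure D1:**
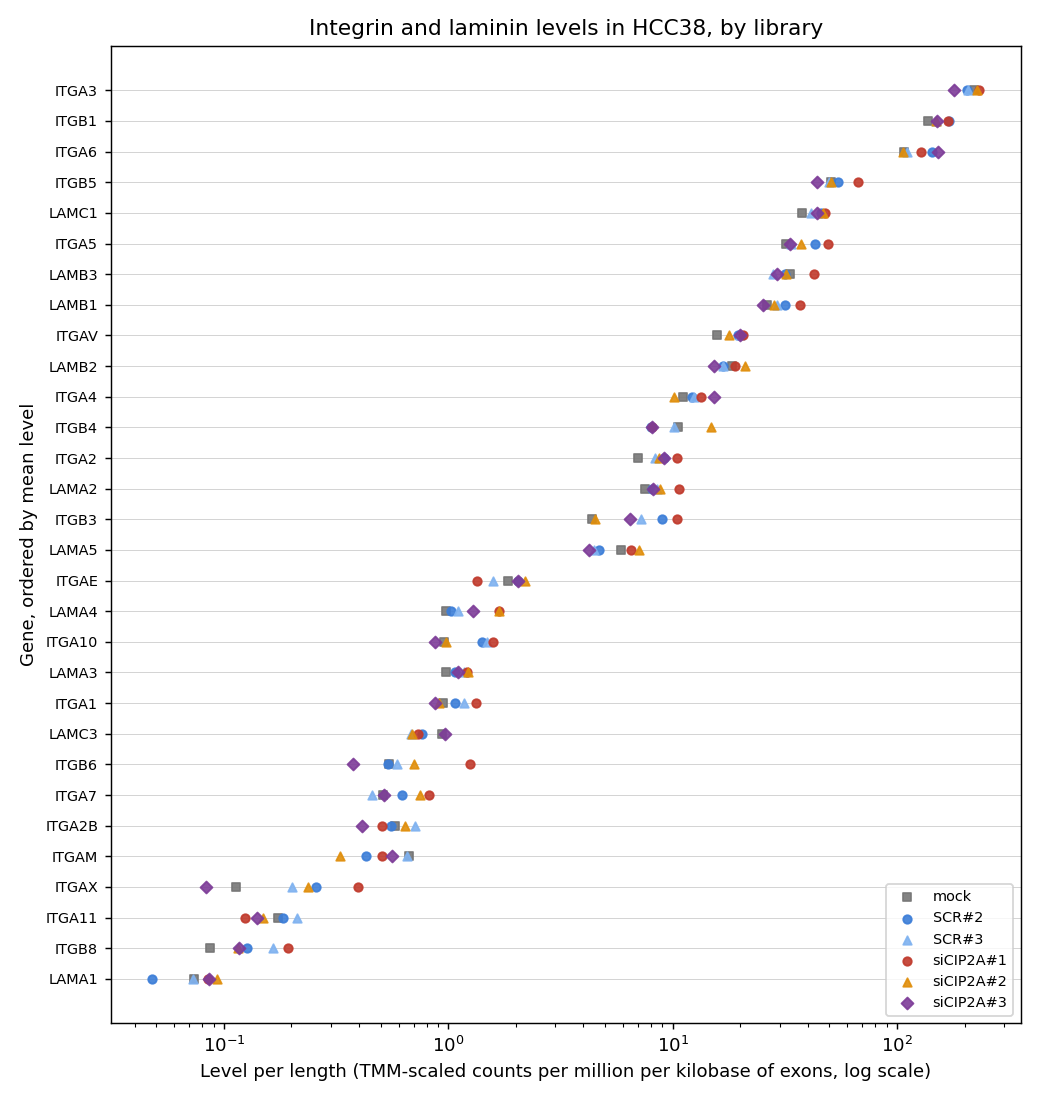
Level per length (TMM-scaled CPM per kilobase of exons, log axis) of the genes that passed the count filter, all but 1 of 31, ordered by mean; each point is 1 of 6 libraries. ITGA3, ITGB1 and ITGA6 lie at the top with means of 212, 154 and 125, and LAMA1 at the bottom with 0.0764.

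The count filter was passed by 31 of the 38 genes: 14 alpha subunits, 6 beta subunits and 11 laminin chains. The other 7 had at most 8 counts in any library. They were the leukocyte subunits ITGAD, ITGAL, ITGB2 and ITGB7, the subunits ITGA8 and ITGA9, and the laminin chain LAMB4.

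Over the 3 siRNAs as a group, the laminin alpha chain LAMA4 had the smallest p and largest difference of the 31 genes. It did not pass the test. LAMA4 stood at 11.3, 11.9 and 12.8 CPM in the mock, SCR#2 and SCR#3 libraries and at 19.5, 19.6 and 14.8 CPM with siCIP2A#1, siCIP2A#2 and siCIP2A#3. All treated libraries were above all controls, as in 3.26% of all genes. The log2 difference was 0.58 (SE 0.15), with an adjusted p of 0.999 over 13562 genes (edgeR quasi-likelihood test; 0.0018 unadjusted). In RNA from whole cultures, more cells that express a gene and more of its RNA per cell cannot be told apart. No gene of the 31 was called by edgeR, DESeq2 or limma-voom, and these tools called 0%, 0.0221% and 0% of all genes. At an unadjusted p under 0.05, 2 of the 31 were higher, LAMA4 among them, against 1.49% of all genes, and 0 were lower, against 1.23%.

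The next genes by p had smaller or less certain differences. ITGA11, a collagen receptor subunit at the low end of the range, stood at 1.89, 1.99 and 2.31 CPM in the controls and 1.35, 1.61 and 1.53 CPM in the treated libraries, all of them below the controls (log2 difference -0.46, SE 0.25). LAMA2 stood at 77.7, 84.0 and 87.9 CPM against 111, 90.7 and 85.0 CPM (0.20, SE 0.11). ITGA2 stood at 55.7, 72.3 and 65.7 CPM against 83.1, 68.7 and 72.1 CPM (0.21, SE 0.12). The laminin receptor subunit ITGA7 stood at 3.28, 3.98 and 2.92 CPM against 5.25, 4.78 and 3.30 CPM (0.39, SE 0.23). In LAMA2, ITGA2 and ITGA7 the groups overlapped. All 3 treated libraries were above all 3 controls in 2 of the 31 genes, LAMA4 and LAMA1 (13 to 25 counts a library, with 10.3% of its exon bases under an antisense gene), against 3.26% of all genes, and below them in 1, ITGA11, against 4.38%.

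Small positive differences were common in the families without any passing the test. The median log2 difference was 0.11 over the 31 genes and -0.0011 over all genes. Of the 31, 26 were above 0, against 49.7% of all genes. Among laminins 11 of 11 were above 0 with a median of 0.16, from 0.0064 in LAMC3 to 0.58 in LAMA4. Among integrins 15 of 20 were above 0 with a median of 0.07. Of the genes with the highest levels, ITGA3 differed by 0.01 (SE 0.10), ITGB1 by 0.04 (SE 0.09), ITGA6 by 0.10 (SE 0.14), LAMC1 by 0.15 (SE 0.09) and ITGAV by 0.07 (SE 0.11). The sign of many of these depends on 1 library. Without siCIP2A#1 the median was 0.03 and 16 of the 31 were above 0. Without the mock these were 0.07 and 21, and without siCIP2A#3 they were 0.18 and 23.

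The remaining genes had the following log2 differences over the group. Among alpha subunits they were -0.04 in ITGA1, -0.16 in ITGA10, -0.24 in ITGA2B, 0.12 in ITGA4, 0.14 in ITGA5, 0.02 in ITGAE, -0.32 in ITGAM and 0.32 in ITGAX. Among beta subunits they were 0.06 in ITGB3, 0.11 in ITGB4, 0.06 in ITGB5, 0.49 in ITGB6 and 0.17 in ITGB8. Among laminin chains they were 0.46 in LAMA1, 0.13 in LAMA3, 0.25 in LAMA5, 0.06 in LAMB1, 0.09 in LAMB2 and 0.16 in LAMB3. The SE ranged from 0.09 to 0.47 over the 31 genes, the largest in ITGAX, which had 10 to 52 counts a library.

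Taken 1 by 1, the siRNA libraries had medians from -0.09 to 0.32 over the 31 genes. Each is 1 library, tested against the spread of the 3 controls, and the comparisons share those controls. No gene of the families was called for siCIP2A#1, siCIP2A#2 or siCIP2A#3 by edgeR, which called 0.118%, 0.0737% and 0.00737% of all genes. DESeq2 (0.553%, 0.45% and 0.214% of all genes) and limma-voom (0.17%, 0.0811% and 0.00737%) also called 0 of the 31.

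The siCIP2A#1 library had the highest levels of these genes. It was the highest of the 6 libraries in 17 of 31 genes (54.8%), against 18.1% of all genes. Its median log2 difference from the controls was 0.32 over the 31 genes, 0.39 over laminins and 0.23 over integrins. At an unadjusted p under 0.05, 12 of the 31 were higher, against 5.57% of all genes, and 1, ITGAE, was lower (-0.45, SE 0.20), against 4.38%. The 12 included ITGA2, ITGA5, ITGA7, ITGAX, ITGB5, ITGB6, LAMA2, LAMA4, LAMA5, LAMB1 and LAMB3.

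ITGB6, which pairs with alpha V in a receptor that activates TGF-beta, had the smallest p with siCIP2A#1. It stood at 2.55, 2.51 and 2.78 CPM in the controls and 5.85, 3.29 and 1.77 CPM in the 3 treated libraries (log2 difference with siCIP2A#1 1.16, SE 0.22, adjusted p = 0.103). The treated libraries thus lay both above and below the controls, and 20.6% of its exon bases are shared with another transcript on the same strand. LAMB3 stood at 156, 148 and 132 CPM against 201, 150 and 137 CPM (0.47, SE 0.11, with siCIP2A#1). ITGB5, a partner of alpha V in vitronectin receptors, stood at 329, 352 and 320 CPM against 431, 329 and 282 CPM (0.37, SE 0.09, with siCIP2A#1). LAMB1 stood at 215, 258 and 238 CPM against 302, 230 and 206 CPM (0.35, SE 0.11, with siCIP2A#1). ITGA5 stood at 241, 328 and 255 CPM against 373, 282 and 251 CPM (0.44, SE 0.15, with siCIP2A#1). In LAMB3, ITGB5, LAMB1 and ITGA5 only siCIP2A#1 was above all 3 controls.

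With siCIP2A#2 the median was 0.06 over the 31 genes, and differences ran from -0.81 in ITGAM to 0.71 in LAMA4. ITGB3 stood at -0.61 (SE 0.33) and ITGA7 at 0.49 (SE 0.25). At an unadjusted p under 0.05, 4 were higher, against 5.38% of all genes, and 1, the leukocyte subunit ITGAM, was lower (-0.81, SE 0.35), against 6.21%. Beside LAMA4 (0.71, SE 0.15) and LAMB2 (0.28, SE 0.10), these were ITGB4 and LAMA5. ITGB4, the hemidesmosome subunit, stood at 71.6, 54.0 and 68.3 CPM in the controls and 54.5, 99.9 and 54.9 CPM in the treated libraries (0.63, SE 0.15, with siCIP2A#2). LAMA5, an alpha chain of many epithelial basement membranes, stood at 84.3, 66.9 and 63.9 CPM against 93.6, 101 and 60.8 CPM (0.50, SE 0.16, with siCIP2A#2). ITGB4 was high with siCIP2A#2 alone, and LAMA5 with siCIP2A#1 and siCIP2A#2.

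With siCIP2A#3 (CIP2A at 19.3 CPM, against 16.3 CPM with siCIP2A#1), the median was -0.09 over the 31 genes, 0.04 over laminins and -0.13 over integrins. At an unadjusted p under 0.05, 1 gene was higher, against 2.99% of all genes, and 2 were lower, against 5.24%. The higher gene was ITGA4, a subunit of receptors for fibronectin and VCAM1, at 87.5, 95.9 and 98.5 CPM in the controls and 105, 80.3 and 121 CPM in the treated libraries (0.37, SE 0.11). The lower genes were ITGA3, at 2162, 2021 and 2032 CPM against 2278, 2232 and 1760 CPM (-0.24, SE 0.08), and ITGB5 (-0.24, SE 0.10). In both, siCIP2A#3 was the lowest library.

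Of the other genes of high level, LAMC1 was above 0 with every siRNA (0.19, 0.17 and 0.08), without passing the test. ITGB1 stood at 822, 1020 and 899 CPM in the controls and 1020, 901 and 907 CPM in the treated libraries. ITGA6 stood at 701, 940 and 723 CPM against 840, 697 and 1000 CPM. LAMC1 stood at 318, 385 and 349 CPM against 400, 395 and 370 CPM, and ITGAV at 130, 161 and 164 CPM against 168, 146 and 164 CPM. The groups overlapped in all 4.

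**Figure D2:**
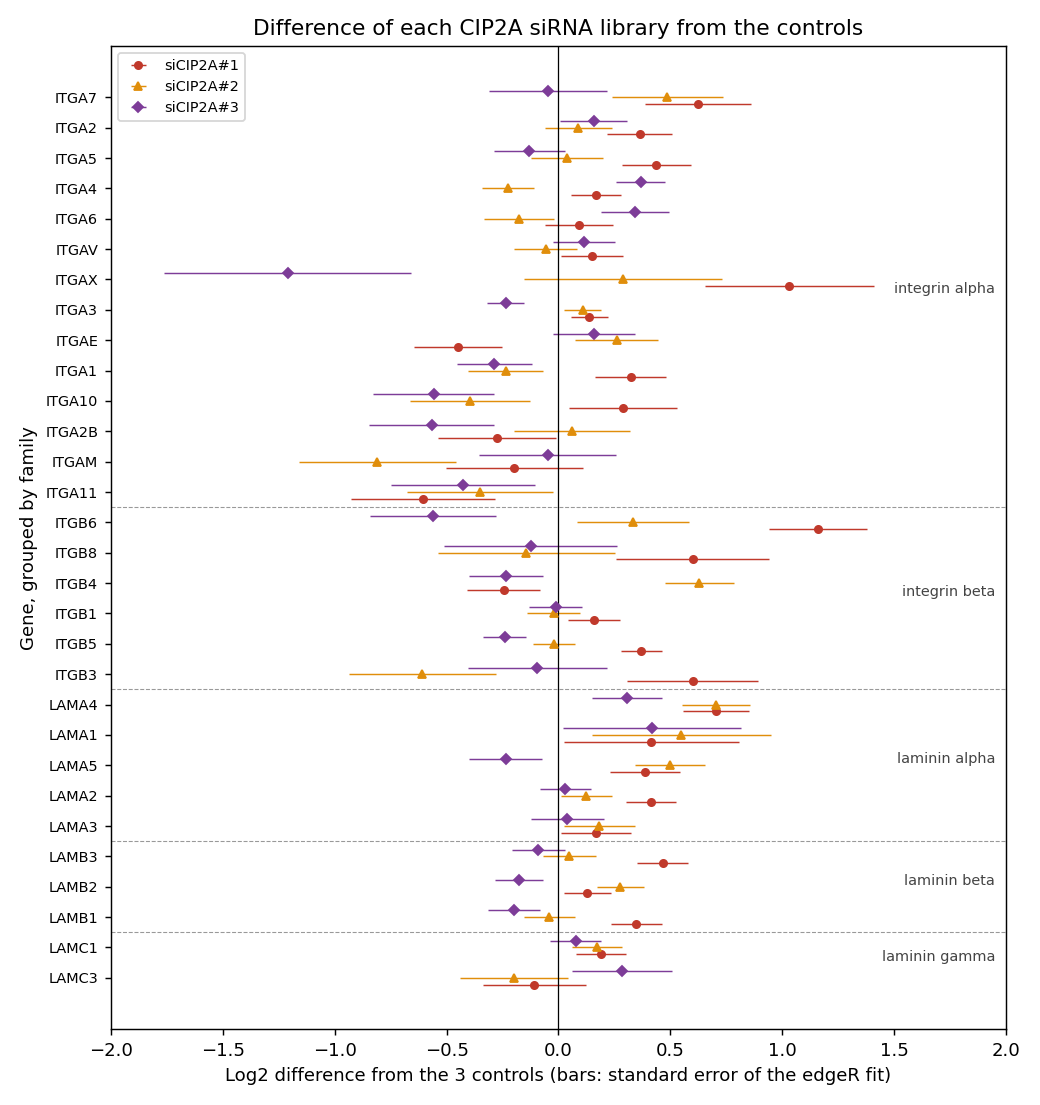
Log2 difference of each CIP2A siRNA library from the 3 controls for the genes tested, all but 1 of 31, by family. Bars are the SE, the absolute log2 difference over the square root of its edgeR F statistic. LAMA4 lies above 0 with every siRNA (0.70, 0.71 and 0.31), while ITGB6 runs from 1.16 with siCIP2A#1 to -0.56 with siCIP2A#3.

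**Figure D3:**
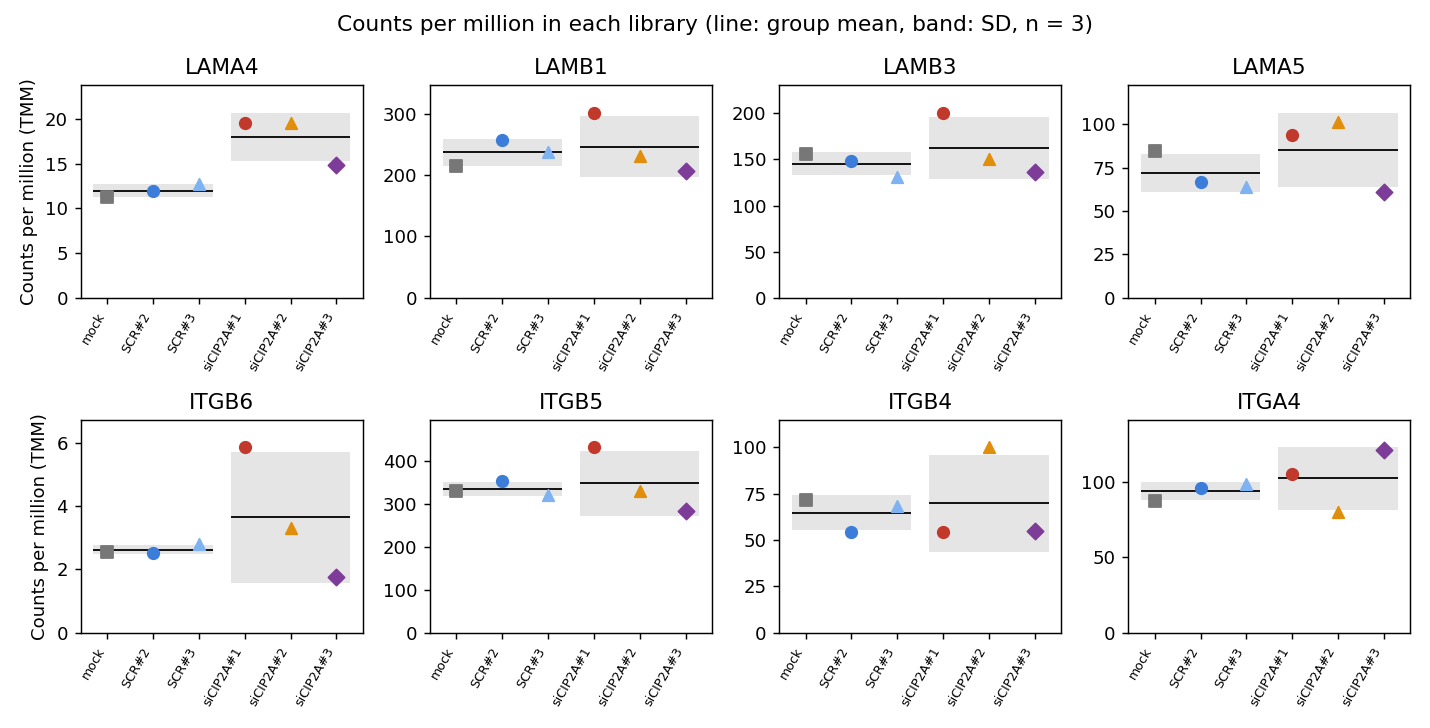
TMM-scaled CPM of LAMA4, LAMB1, LAMB3, LAMA5, ITGB6, ITGB5, ITGB4 and ITGA4 in each library; lines are group means and bands the SD (n = 3). LAMA4 is higher in every treated library than in every control, as are 3.26% of all genes. LAMB3, ITGB5 and ITGB6 are high with siCIP2A#1 and ITGB4 with siCIP2A#2.

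The siRNAs were also compared with each other. Between siCIP2A#3 and siCIP2A#1, 1 library each, the CIP2A level differed by 0.24 (SE 0.15, adjusted p = 0.542, edgeR). The median was -0.37 over the 31 genes and -0.0019 over all genes. Whether the CIP2A level bears on these differences was not tested. ITGB6 was lower with siCIP2A#3 by a log2 difference of -1.72 (SE 0.30, adjusted p = 0.0542, edgeR) and ITGB5 by -0.61 (SE 0.12, adjusted p = 0.0731, edgeR). Neither passed the threshold of 0.05. The next were ITGAX (-2.24, SE 0.56), LAMB1 (-0.55, SE 0.14) and LAMB3 (-0.56, SE 0.14). edgeR called 0 of the 31 (0.509% of all genes), limma-voom 0 (0.59%) and DESeq2 1, ITGB5 (1.06%). At an unadjusted p under 0.05, 13 were lower with siCIP2A#3, against 7.96% of all genes, and 1, ITGAE, was higher, against 5.6%.

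Between siCIP2A#2 and siCIP2A#1, ITGB4 was 0.87 higher (SE 0.20, adjusted p = 0.172) and ITGB5 differed by -0.39 (SE 0.11). LAMA4 differed by 0.0022 (SE 0.18), and the sign of this difference turned with other scalings. Here edgeR called 0 (0.0147%), limma-voom 0 (0.00737%) and DESeq2 1, ITGB4 (0.656%), with 2 higher (5.38% of all genes) and 7 lower (6.71%) before adjustment. Between siCIP2A#3 and siCIP2A#2, ITGB4 differed by -0.86 (SE 0.20), ITGA4 by 0.59 (SE 0.14) and LAMA5 by -0.73 (SE 0.20). edgeR and limma-voom called 0 (both 0% of all genes) and DESeq2 1, ITGB4 (0.708%), with 2 higher (7.37%) and 6 lower (8.24%) before adjustment.

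Leaving out the mock changed the counts of calls most. The spread then comes from the 2 non-targeting libraries alone, with 1 residual degree of freedom, and many genes of any kind were called. With siCIP2A#1, 11 of the 31 were then called higher, against 7.48% of all genes, and 0 lower, against 6.28%. The 11 included ITGA2, ITGA3, ITGB3, ITGB5, ITGB6, LAMA2, LAMA4, LAMA5, LAMB1 and LAMB3. With siCIP2A#2, 5 were called higher (12% of all genes), among them ITGB4, LAMA4, LAMA5 and LAMB2, and 3 lower (10.4%), namely ITGA4, ITGA10 and ITGB3. With siCIP2A#3, ITGA4 was called higher (4.85%) and ITGA3, ITGA10, ITGB5 and LAMB1 lower (4.8%). Between siCIP2A#2 and siCIP2A#1, 2 were higher (8.42%) and 10 lower (8.28%). Between siCIP2A#3 and siCIP2A#1, 1 was higher (8.71%) and 13 lower (9.26%), and between siCIP2A#3 and siCIP2A#2, 2 were higher (10.5%) and 6 lower (11.4%).

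No gene of the families was called between the non-targeting siRNAs and the mock, though the levels of some were apart. The mock is 1 library, and the spread in this comparison came from the SCR and CIP2A siRNA libraries. The mock was the lowest library in 10 of 31 genes (32.3%), against 14.2% of all genes, and siCIP2A#3 was the lowest in as many (32.3%), against 20.7%. The median log2 difference of the non-targeting libraries from the mock was 0.15. ITGB3, the beta subunit of the vitronectin receptor, stood at 19.3 CPM in the mock and 39.4 and 31.8 CPM in SCR#2 and SCR#3 (0.89, SE 0.42), and at 46.0, 19.9 and 28.4 CPM with the 3 CIP2A siRNAs. Of its exon bases, 51.6% are shared with a readthrough gene on the same strand, so its count is uncertain. edgeR, DESeq2 and limma-voom called 0 of the 31 (0%, 0.0221% and 0% of all genes). Before adjustment 1, ITGAV, was higher (0.32, SE 0.13; 1.14% of all genes) and 0 were lower (5.18%).

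Genes that work with these families were read from lists of partners. Of 15 tested basement membrane partners, which sit beside laminin in the matrix, 14 were above 0 with siCIP2A#1 (median 0.41), 8 with siCIP2A#2 (0.01) and 3 with siCIP2A#3 (-0.15). Of all genes, 48.8%, 49.4% and 48.0% were above 0. The partner below 0 with siCIP2A#1 was NID2 (-1.60, SE 0.42), at 0.65 CPM in that library. Of 15 tested other integrin ligands, 14, 9 and 5 were above 0, with medians of 0.43, 0.10 and -0.04. SPARC, a collagen-binding matrix protein, stood at 33.6, 39.5 and 39.8 CPM in the controls and 89.5, 47.7 and 24.0 CPM in the treated libraries. It was called higher in the siCIP2A#1 library (1.25, SE 0.13, adjusted p = 0.0258, edgeR). COL1A1, a chain of collagen I that is also a fibroblast marker, stood at 5.39, 5.09 and 4.61 CPM against 14.4, 6.59 and 4.89 CPM, and was called higher in the siCIP2A#1 library (1.52, SE 0.17, adjusted p = 0.027, edgeR). Between the siCIP2A#3 and siCIP2A#1 libraries, SPARC (-1.90, SE 0.17, adjusted p = 0.0216, edgeR), COL1A1 (-1.56, SE 0.23, adjusted p = 0.0414, edgeR) and the integrin ligand CYR61 (-0.82, SE 0.13, adjusted p = 0.0476, edgeR) were called lower in the former. The call of CYR61 was lost with RLE factors and when genes had to reach 1 CPM in 3 libraries. Each of these calls concerns single libraries, with a spread taken from the controls alone. In the same siCIP2A#1 library the 3 tested fibroblast markers were all above 0 (median 1.06), as were the 3 tested endothelial markers (median 0.59). Of the luminal markers, KRT8 (0.45, SE 0.15), KRT18 (0.48, SE 0.13) and ERBB2 (0.08) were above 0, and GATA3 (-0.36) and FOXA1 (-0.12) below. The basal markers EGFR (-0.14) and CDH3 (-0.36) were below 0. COL1A1 was the only one of these called by edgeR, and their part in the laminin and integrin values was not tested.

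Over the group of siRNAs no partner passed the test. The smallest p among integrin ligands were those of TNC (log2 difference 0.47, SE 0.14), ICAM1 (0.28, SE 0.10), FN1 (0.25, SE 0.10) and COL1A1 (0.79, SE 0.33), and among basement membrane partners those of COL7A1 (0.42, SE 0.21), SPARC (0.52, SE 0.34), COL4A5 (0.23, SE 0.17) and NID2 (-0.43, SE 0.37). On the cell's inner side the 34 tested focal adhesion adaptors, which link integrins to actin, had a median of 0.02, with 18 above 0, and those with the smallest p were GIT1 (0.16, SE 0.12), TNS3 (0.18, SE 0.14), ACTN1 (-0.09, SE 0.08) and BCAR1 (0.20, SE 0.18). The 4 hemidesmosome partners had a median of 0.05: PLEC 0.25, DST 0.05, COL17A1 0.05 and CD151 -0.04. The 10 other laminin receptors had a median of 0.0020, and the 4 with the smallest p were BCAM (0.16), SDC4 (0.11), SDC2 (0.31) and RPSA (-0.07). Among 18 genes of integrin activation and traffic the median was 0.04, with SLC3A2 at 0.44 (SE 0.17), SNX17 at -0.20, RAB11FIP1 at 0.24 and RASGRP3 at 0.36. Among 12 tetraspanins it was 0.02, with CD82 at 0.21, TSPAN1 at -0.23, TSPAN14 at -0.07 and TSPAN3 at 0.07.

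**Figure D4:**
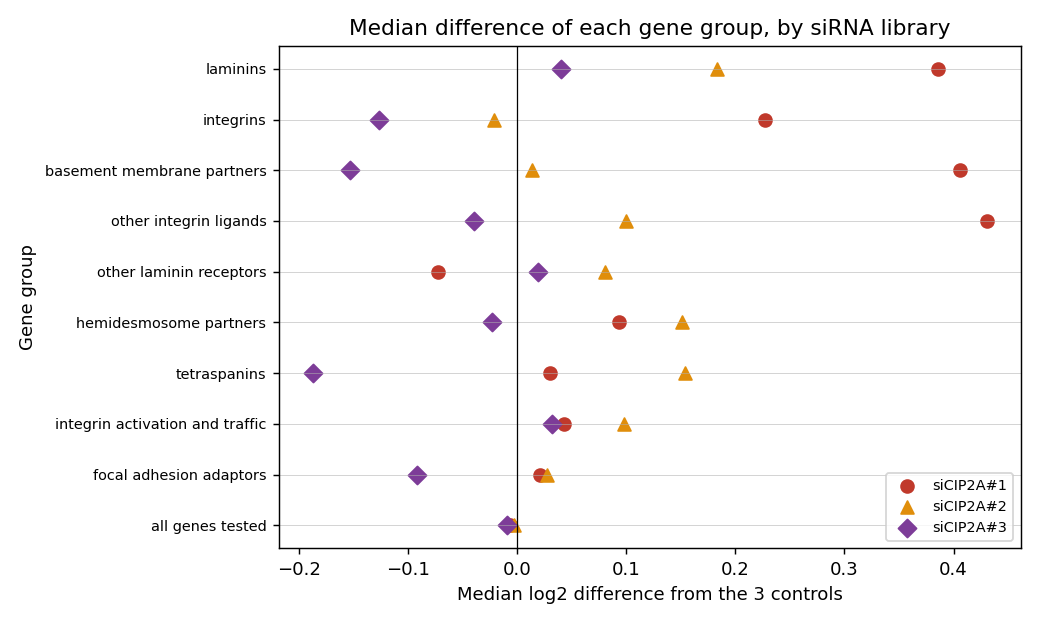
Median log2 difference from the 3 controls of each gene group, for each CIP2A siRNA library, beside all genes tested. Laminins, basement membrane partners and other integrin ligands lie at 0.39, 0.41 and 0.43 with siCIP2A#1, and between -0.15 and 0.04 with siCIP2A#3.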

How the data were processed

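Poly(A) RNA of 6 HCC38 libraries was prepared with a stranded TruSeq kit, per the labels' protocols. The submitters' processing notes name bcl2fastq 2.17, STAR 2.5.4b, Subread 1.5.1 and hg38; how strand and multi-mapped reads were treated, and with which annotation, is not stated there, so overlapping genes are uncertain. The authors deposited raw read counts per gene for 26485 genes. From these, filterByExpr (minimum count 10) kept 13562 genes, TMM scaled the libraries, and edgeR 4.0.16 (R 4.3.3; robust glmQLFit, glmQLFTest) tested group (4 residual degrees of freedom), each siRNA (2, from the controls alone) and non-targeting siRNA against mock (3), with Benjamini-Hochberg adjustment over all genes and a threshold of 0.05. Each SE printed is the absolute log2 difference over the square root of its edgeR F statistic. DESeq2 1.42.0 and limma 3.58.1 were alternatives. On simulated data, 58% of 1.5-fold and 89% of 2-fold changes were recovered for the group comparison (13445 genes), 45% and 85% for siCIP2A#1 (13459 genes), 19% and 68% for siCIP2A#3 against siCIP2A#1 (13470 genes), and 15% and 63% for non-targeting siRNA against mock (13455 genes). Of the genes left unchanged there, 13, 7, 3 and 8 were called in these comparisons, in that order. The real siRNA libraries lay further apart (chi-square per degree of freedom 14.6 to 17.1) than the real controls (3.10 to 10.8). Recovery in the real libraries was not tested, so these shares do not measure what the real group comparison missed. In it CIP2A itself was not called (log2 difference -1.90, adjusted p 0.708, edgeR). The genes, partner lists and printed promoters were chosen with earlier results of these data known. Values in every library are given for the 10 highest genes per length, the 6 smallest p over the group and the 3 smallest p of each siRNA. None was called by edgeR, which would also have been shown. Chi-square per degree of freedom between libraries of a group was 3.10 to 17.1, so none was a copy. Of the genes chosen, 1 enters the counts and medians but is not reported here by name. Nothing in the labels pairs the libraries by replicate number.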

Additional observations from a re-analysis of the deposited data

How the results depend on the processing

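No gene of the families was called over the group of siRNAs under any alternative run, and their median log2 difference lay between 0.03 and 0.18. With a replicate block, 0 were called and the median was 0.10. Same-numbered libraries correlated at -0.12, -0.13 and 0.0076 in their deviations from the group means. The libraries of a group differ in treatment, so these values cannot exclude a shared batch. Single siRNAs leave no residual degrees of freedom for a block. Calls for siCIP2A#1, siCIP2A#2 and siCIP2A#3 against controls went from 0 to 11, 7 and 5 of 31 when the mock had a level of its own. Of these, 11, 4 and 1 were higher and 0, 3 and 4 lower. The same fits called 1810, 2997 and 1217 of all 13562 genes. Without a filter the calls were 2, 1 and 0 of 38, against 169, 109 and 44 of 19137 genes. Between siRNAs, calls in siCIP2A#2 against siCIP2A#1 went from 0 to 1 (DESeq2), 1 (no filter) and 11 (mock separate). Over all genes these fits called 89, 156 and 2216. In siCIP2A#3 against siCIP2A#1 calls went to 1 (upper quartile), 1 (DESeq2), 4 (no filter) and 14 (mock separate), against 74, 144, 305 and 2361 of all genes. In siCIP2A#3 against siCIP2A#2 they went to 1, 3 and 7 (DESeq2, no filter, mock separate), against 96, 211 and 2946. All genes were 13562, or 19137 without a filter. Leaving out 1 library gave 0 to 11, 0 to 8 and 0 to 5 calls for siCIP2A#1, siCIP2A#2 and siCIP2A#3 against controls, and 0 to 12, 0 to 14 and 0 to 8 in the 3 pairs, each highest without the mock. The shares of all genes without the mock stand with those calls in the results. Removing SCR#2 or SCR#3 gave 4 and 3 in siCIP2A#3 against siCIP2A#1, against 241 of 13684 and 213 of 13768 genes. The fits with fewer controls rest on fewer residual degrees of freedom.

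Signs of small differences over the group turned when the mock had its own level in ITGAV (-0.028), ITGB1 (-0.026), ITGB3 (-0.18), ITGB8 (-0.034) and LAMB1 (-0.010), with limma-voom in ITGAE (-0.017) and with the replicate block in LAMC3 (-0.00094). LAMA4 between siCIP2A#2 and siCIP2A#1 turned to -0.0032 (RLE), -0.015 (upper quartile) and -0.0032 (DESeq2). Leaving out 1 library gave ranges of -0.26 to 0.074 in ITGA1, -0.053 to 0.12 in ITGA3, -0.016 to 0.27 in ITGA4, -0.043 to 0.28 in ITGA5, -0.037 to 0.25 in ITGA6, -0.12 to 0.21 in ITGAE, -0.029 to 0.13 in ITGAV, -0.29 to 0.73 in ITGAX, -0.026 to 0.13 in ITGB1, -0.32 to 0.30 in ITGB3, -0.24 to 0.26 in ITGB4, -0.13 to 0.19 in ITGB5, -0.056 to 0.82 in ITGB6, -0.13 to 0.40 in ITGB8, -0.12 to 0.17 in LAMB1, -0.015 to 0.20 in LAMB2, -0.019 to 0.27 in LAMB3 and -0.15 to 0.14 in LAMC3, and of -0.018 to 0.13 in ITGB6 for non-targeting siRNA against mock. The cause was not tested. Of 1179 alternative values of 96 single differences, 1018 kept sign and call, 118 became called and 43 changed sign. The 96 held every difference over the group. From the other comparisons they held those with an unadjusted p under 0.05 (edgeR), with LAMA4, ITGB6 and, for each siRNA against controls, CIP2A. Differences taken by p were far from 0 by choice, so their kept signs do not measure stability.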
